A study of Mus musculus with 10 samples.

Results

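Macrophage genes were followed in the mouse colon in a model of colitis-associated cancer. The model joins azoxymethane (AOM), which causes colon tumours in rodents, to dextran sulfate sodium (DSS), which damages the lining of the gut. The set was named as 10 genes: the effector genes Arg1 and Spp1 and the macrophage genes Cd68, Adgre1, Csf1r, Mrc1, Cd163, Trem2, Lyz2 and C1qa. Transcript rows were assigned to these symbols through RefSeq, and the FPKM of a gene's transcripts, fragment numbers scaled by transcript length and library, were summed. This found 9 of the 10 genes among 23488 gene rows. No transcript row could be assigned to Cd68, which encodes an endosomal glycoprotein of phagocytes, so it has no value here.

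All 10 libraries came from C57BL/6 mice, in 5 groups of 2 libraries each. Control mice were given saline at 6 weeks of age and the AIN-93M diet. At the same age, Model mice were injected with AOM under the skin at 10 mg/kg, and a week later drank water with 1.2% DSS for 7 days, on the same diet. The ASA group had the same AOM and DSS with 0.02% aspirin in the diet, the CUR group 2% curcumin, and the ASA+CUR group 0.01% aspirin with 1% curcumin. The Control tissue is labelled colon and that of the other 4 groups tumor samples, whereas the protocol describes colon left after palpable tumours were taken out. Tissue type and AOM/DSS treatment therefore cannot be told apart in any comparison with Control. Whether the paired libraries in each group stem from different mice is not stated in the labels, so p-values measure only their spread, which may be technical.

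Macrophages of the colon wall depend on signalling through the receptor Csf1r and are renewed largely by monocytes that enter from blood. Resting cells take up debris and dampen inflammation, and in injury and tumours macrophages can express arginase 1 (Arg1), which splits arginine into ornithine and urea, and osteopontin (Spp1), a secreted ligand of integrins and Cd44. Neither gene is limited to macrophages: epithelial and stromal cells can make osteopontin, and other myeloid cells can make arginase 1. In bulk tissue, fewer cells of a type and less RNA per cell cannot be told apart.

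The sum of FPKM per library ran from 515959 to 720895, and 12781 to 13283 genes reached 1 FPKM. FPKM hold no read totals, so counting error could not be computed. Some AOM/DSS libraries stood apart in tissue content. Krt5, a keratin of squamous epithelium, exceeded 10 FPKM in Model replicate 0 (10.3 FPKM), ASA replicate 0 (94.5 FPKM) and ASA+CUR replicate 0 (212 FPKM). Krt14, another such keratin, measured 0.164 and 0.589 FPKM in Control and 9.97 to 198 FPKM over all AOM/DSS libraries. Leaving out the libraries of high Krt5 therefore does not take out all squamous keratin. Hoxd13, a transcription factor of the hindgut end, was under 0.1 FPKM in Model replicate 1, ASA replicate 1 and CUR replicate 0. It measured 3.52 and 1.86 FPKM in Control and 8.35 FPKM in Model replicate 0. In ASA replicate 0, CUR replicate 1 and both ASA+CUR libraries it measured 65.2 to 87.7 FPKM. Without the low libraries, the AOM/DSS libraries that remain all lie above Control for Hoxd13. Calls of the set that change without the libraries of high Krt5 or of low Hoxd13 are given with and without them. The high Krt5 libraries include none of CUR or Control, and the low Hoxd13 libraries none of ASA+CUR or Control. In those comparisons the difference from Control is unchanged, and a call moves only through the shared spread and the adjustment. The same holds for any left-out library outside the groups compared. In Model, ASA and ASA+CUR, leaving out the libraries of high Krt5 takes replicate 0 out of the group compared. The difference from Control is then that without replicate 0 alone, so the 2 fits are not separate support. This applies as well to low Hoxd13 and Model replicate 1, ASA replicate 1 or CUR replicate 0. Smooth muscle genes moved with every comparison with Control: the 8 listed genes summed to 5360 to 8830 FPKM in Control and 272.1 to 854.3 FPKM after AOM/DSS, and their part in the results was not tested.

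The lysozyme genes are shown first because their reads are hard to separate. Lyz2, the lysozyme of macrophages, neutrophils and other myeloid cells, lies at chr10:117277541-117282272 (GRCm38.p6). Its neighbour Lyz1, the lysozyme of Paneth cells, lies at chr10:117287795-117292868. Their coding sequences (GENCODE M21) are each 447 bases long, are identical at 425 of them (95.1%) and differ at 22. The first 240 bases, which hold 17 of the differences, are shown with the differing bases in capitals.
Lyz2: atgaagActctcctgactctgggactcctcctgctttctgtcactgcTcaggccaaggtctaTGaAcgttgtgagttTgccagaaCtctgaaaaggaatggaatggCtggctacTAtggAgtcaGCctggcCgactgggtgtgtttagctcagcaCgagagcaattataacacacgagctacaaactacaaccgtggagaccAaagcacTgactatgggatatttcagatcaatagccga
Lyz1: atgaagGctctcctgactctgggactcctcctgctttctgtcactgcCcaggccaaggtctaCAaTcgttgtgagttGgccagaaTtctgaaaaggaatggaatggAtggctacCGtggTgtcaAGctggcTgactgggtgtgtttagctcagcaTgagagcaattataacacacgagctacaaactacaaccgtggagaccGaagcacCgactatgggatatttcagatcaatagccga
Over the whole coding sequence the longest stretch shared without a difference is 118 bases, and a fragment from inside that stretch does not tell the genes apart. The sources used here do not state how the authors treated such fragments, so the FPKM of both genes are uncertain.

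The 250 bases before the start of each lysozyme gene (RefSeq, GRCm38.p6, minus strand) are shown because these neighbours gave unlike differences from Control. They come from chr10:117282273-117282522 for Lyz2 and chr10:117292869-117293118 for Lyz1, and capitals mark bases that differ or have no partner in the alignment.
Lyz2: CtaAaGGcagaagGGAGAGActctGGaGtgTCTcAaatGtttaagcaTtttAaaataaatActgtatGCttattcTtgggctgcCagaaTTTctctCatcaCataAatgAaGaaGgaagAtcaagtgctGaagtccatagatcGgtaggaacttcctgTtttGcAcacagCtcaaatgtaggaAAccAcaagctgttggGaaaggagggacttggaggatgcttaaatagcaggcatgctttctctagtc
Lyz1: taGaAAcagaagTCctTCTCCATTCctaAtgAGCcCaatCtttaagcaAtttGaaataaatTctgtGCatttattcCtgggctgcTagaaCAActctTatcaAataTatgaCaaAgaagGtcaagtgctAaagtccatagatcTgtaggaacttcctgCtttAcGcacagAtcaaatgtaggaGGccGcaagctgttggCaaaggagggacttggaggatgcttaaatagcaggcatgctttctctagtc
Over 261 aligned columns, 204 were identical (78.2%), 35 held a mismatch and 22 a gap, and the longest shared stretch was 50 bases. The coding sequences are thus the more alike of these 2 pairs.

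The stretch before the start of Spp1 is shown because Spp1 and Spi1, which encodes the myeloid transcription factor PU.1, were both higher in Model than in Control. It was searched on both strands for GAGGAAG, a core motif of PU.1. The 250 bases lie at chr5:104434861-104435110 on the plus strand (RefSeq, GRCm38.p6), and capitals mark the motif.
Spp1: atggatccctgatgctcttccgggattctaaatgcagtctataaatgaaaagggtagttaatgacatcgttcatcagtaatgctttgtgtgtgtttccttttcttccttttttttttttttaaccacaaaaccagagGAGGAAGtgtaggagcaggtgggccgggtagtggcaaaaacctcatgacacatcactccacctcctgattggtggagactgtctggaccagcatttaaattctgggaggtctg
The motif began at position -113 from the start. The same 7 letters occurred in 3482 of 32817 mouse promoters of this length (10.6%), and in those of Mrc1, Spp1 and Trem2 among the 6 genes of the set that had a promoter sequence. The AP-1 motif TGANTCA, searched in the same way, occurred in 2216 promoters (6.75%), those of Cd68 and Trem2 among them. Such a match describes the letters and shows no binding.

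Arg1 and Spp1 stood at under 1 FPKM in both Control libraries and above 11 FPKM in every AOM/DSS library. Arg1 (chr10:24915207-24927470, a single transcript in the table) measured 0.812 and 0.517 FPKM in Control replicates 0 and 1. It measured 76.6 and 34.0 FPKM in Model, 68.6 and 185 FPKM in ASA, 39.0 and 28.5 FPKM in CUR, and 72.7 and 91.9 FPKM in ASA+CUR, replicate 0 first. No AOM/DSS library overlapped with Control: the lowest was 35.1-fold above the higher Control library, and the highest was 358-fold above the lower. ASA replicate 1 was the highest library and CUR replicate 1 the lowest of the 8.

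Spp1 (chr5:104435111-104441053) has 5 transcripts in the table, and NM_009263 carried most of the sum in each library. The gene sum was 0.392 and 0.540 FPKM in Control. It was 21 and 62.9 FPKM in Model, 14.4 and 59.7 FPKM in ASA, 11.6 and 12.4 FPKM in CUR, and 20.2 and 69.8 FPKM in ASA+CUR. The replicates of Model, ASA and ASA+CUR lay far apart, with replicate 1 the higher in each, whereas the CUR libraries were close together and were the lowest of the 8. The lowest AOM/DSS library was 21.5-fold above the higher Control library.

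**Figure D1:**
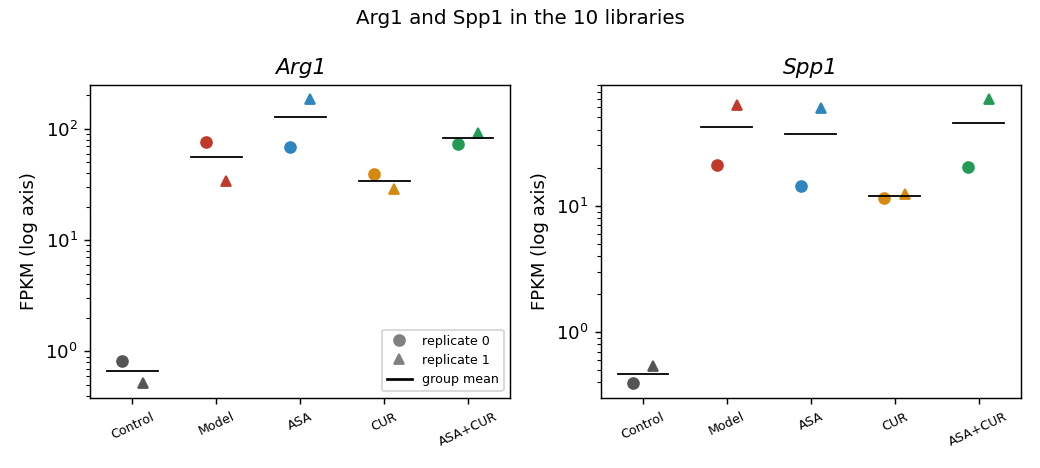
FPKM of Arg1 and Spp1 on a log axis in the 10 libraries by group, with circles for replicate 0, triangles for replicate 1 and a line at the group mean. Both Control libraries lie under 1 FPKM for both genes, and the AOM/DSS libraries lie between 28.5 and 185 FPKM for Arg1 and between 11.6 and 69.8 FPKM for Spp1.

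Arg1 and Spp1 rose in each AOM/DSS group against Control. Differences are on the log2(FPKM + 1) scale with limma's standard error, and its p-values were adjusted over 14061 genes by the Benjamini-Hochberg method at a threshold of 0.05. This scale understates the fold of genes as low as Arg1 and Spp1 were in Control. Arg1 differed by 4.97 ± 0.49 in Model (adjusted p = 0.00124), 6.10 ± 0.49 in ASA (adjusted p = 0.000336), 4.37 ± 0.49 in CUR (adjusted p = 0.00144) and 5.64 ± 0.49 in ASA+CUR (adjusted p = 0.00033). Each comparison uses the same 2 Control libraries. Arg1 and Spp1 reached the minimum of 1 FPKM in 2 libraries only through AOM/DSS libraries, and both kept their calls in the 4 groups with no filter on low values. Leaving out each library in turn moved the Arg1 difference to between 4.40 and 5.55 in Model and between 5.39 and 6.81 in ASA.

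Spp1 differed by 4.68 ± 0.78 in Model (adjusted p = 0.00769, limma), 4.39 ± 0.78 in ASA (adjusted p = 0.00672), 3.15 ± 0.78 in CUR (adjusted p = 0.0312) and 4.72 ± 0.78 in ASA+CUR (adjusted p = 0.00405). The Model call was lost without Control replicate 0 (adjusted p = 0.0563, limma) or Control replicate 1 (adjusted p = 0.0553), with a difference of 4.6 or 4.75. The CUR call was lost without Control replicate 0 or 1 (adjusted p = 0.145 and 0.14, limma) and without CUR replicate 0 or 1 (adjusted p = 0.096 and 0.0769), while the difference stayed between 3.08 and 3.23.

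By group mean, Arg1 was ordered ASA (127 ± 82.2 FPKM, SD, n = 2), ASA+CUR (82.3 ± 13.6 FPKM), Model (55.3 ± 30.1 FPKM), CUR (33.8 ± 7.43 FPKM) and Control (0.664 ± 0.209 FPKM). Adjacent groups among the 4 AOM/DSS groups overlapped, and only the step from CUR to Control parted the libraries of neighbours. Spp1 was ordered ASA+CUR (45.0 ± 35.1 FPKM), Model (41.9 ± 29.7 FPKM), ASA (37.1 ± 32.0 FPKM), CUR (12.0 ± 0.588 FPKM) and Control (0.466 ± 0.105 FPKM). The first 3 of these overlapped with each other, and both libraries of CUR lay below both libraries of each.

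The resident and lineage genes lay closer to Control. Csf1r, the receptor for the growth factors Csf1 and Il34 on chromosome 18, measured 14.4 and 10.5 FPKM in Control, 22.1 and 45.1 FPKM in Model, 17.6 and 35.1 FPKM in ASA, 26.4 and 26.4 FPKM in CUR, and 26.2 and 23.3 FPKM in ASA+CUR. Every AOM/DSS library was above both Control libraries, by 1.22-fold at the least. The difference from Control was 1.30 ± 0.38 in Model (adjusted p = 0.0562, limma) and 0.95 to 1.05 in the other groups (adjusted p between 0.0958 and 0.109), so none passed. Csf1r passed in Model without Model replicate 0, at 1.79 (adjusted p = 0.0317, limma), and also without ASA replicate 0 or 1 (adjusted p = 0.0365 and 0.0366). It passed in ASA without ASA replicate 0, at 1.44 (adjusted p = 0.0484, limma). Without the libraries of high Krt5 it passed in Model, ASA and CUR (adjusted p = 0.0354, 0.0388 and 0.049, limma), and without those of low Hoxd13 in CUR and ASA+CUR (0.0356 and 0.0133). With only the 2 groups compared in the fit it passed in CUR and ASA+CUR (adjusted p = 0.0498 and 0.0131, limma).

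Adgre1, which encodes the F4/80 surface antigen (chr17:57358581-57483529), measured 6.17 and 5.51 FPKM in Control and between 5.98 FPKM in CUR replicate 0 and 19.9 FPKM in Model replicate 1, with a median of 8.64 FPKM over the 8 AOM/DSS libraries. Mrc1, the mannose receptor CD206 (chr2:14229414-14332023), measured 6.99 and 4.24 FPKM in Control and between 4.0 FPKM in CUR replicate 0 and 15.9 FPKM in Model replicate 1, with a median of 7.46 FPKM. Both genes overlapped between Control and AOM/DSS libraries, through CUR replicate 0 in the case of Adgre1. With all libraries in the fit neither passed against Control: the largest difference was 1.06 ± 0.47 for Adgre1 (adjusted p = 0.169, limma) and 0.80 ± 0.42 for Mrc1 (adjusted p = 0.232), both in Model. Without the libraries of high Krt5, Adgre1 passed in Model at 1.61 and in ASA at 1.47 (adjusted p = 0.0454 and 0.0416, limma). In ASA+CUR, where Adgre1 differed by 0.54, it passed with only the 2 groups compared in the fit (adjusted p = 0.0238, limma). It also passed without the libraries of low Hoxd13, none of which belong to ASA+CUR or Control. The difference stayed at 0.54 in both fits, and only the spread and the adjustment changed. For Mrc1 the difference of CUR from Control was -0.18 ± 0.42 (adjusted p = 0.818, limma). Its sign turned without Control replicate 0 (0.13) or CUR replicate 0 (0.02).

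Cd163, the haemoglobin scavenger receptor of resident macrophages (chr6:124304636-124330529), was the single gene of the set that lay below Control in all 8 AOM/DSS libraries. It measured 1.56 and 1.10 FPKM in Control, 0.299 and 0.348 FPKM in Model, 0.605 and 0.213 FPKM in ASA, 0.0689 and 0.731 FPKM in CUR, and 0.938 and 0.0472 FPKM in ASA+CUR. It reached the minimum of 1 FPKM in 2 libraries only through Control, so it had to differ to be tested. The differences lay between -0.81 in Model (adjusted p = 0.155, limma) and -0.70 in ASA+CUR (adjusted p = 0.163), and none passed. The 2 transcripts traded places between libraries: NM_001170395 held nearly all of the sum in Control replicate 0 and NM_053094 most of it in Control replicate 1, and both stayed under 2 FPKM in all libraries.

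**Figure D2:**
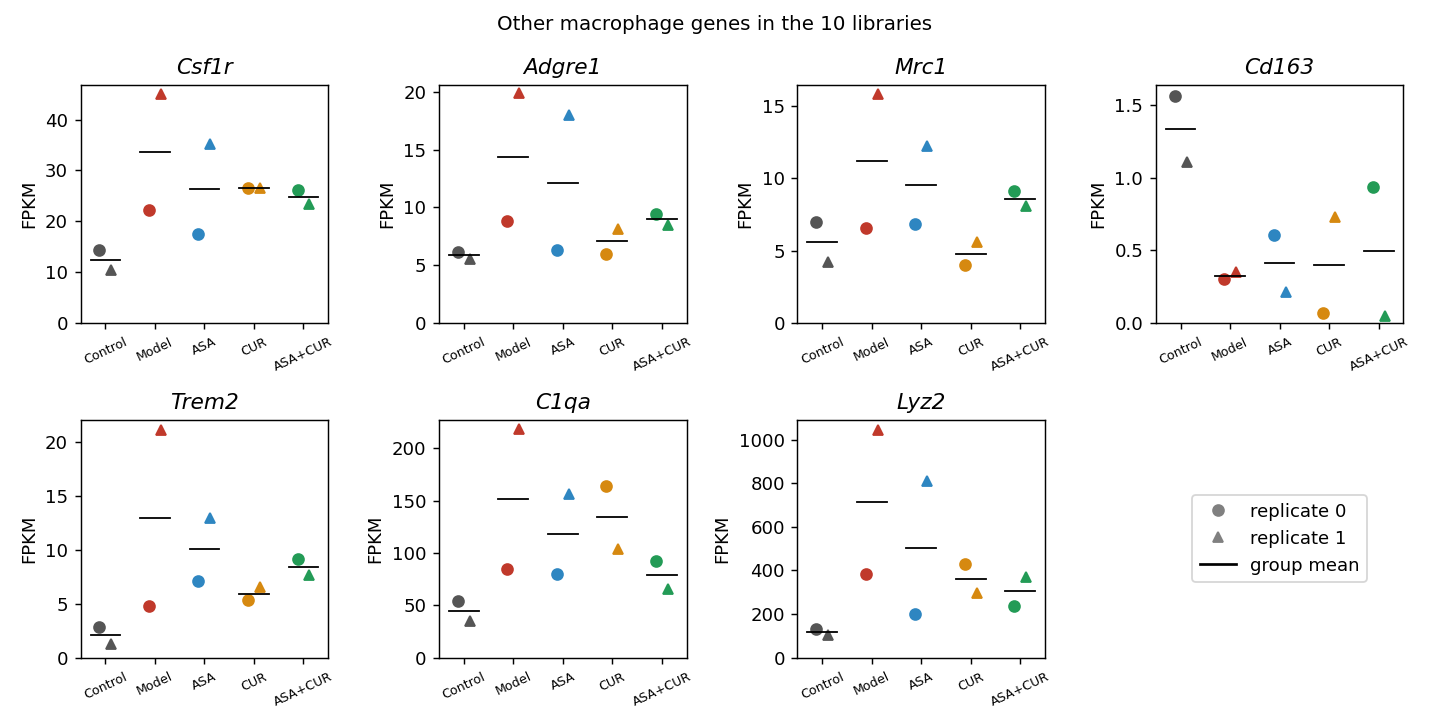
FPKM of Csf1r, Adgre1, Mrc1, Cd163, Trem2, C1qa and Lyz2 in the 10 libraries by group on linear axes from 0, with circles for replicate 0, triangles for replicate 1 and a line at the group mean. Model replicate 1 is the highest library for all but Cd163, which is highest in the Control libraries.

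Among the genes of sensing and clearance, Lyz2 rose in Model and Trem2 and C1qa did not pass. Trem2, a lipid-sensing receptor that signals through Tyrobp (chr17:48346401-48352276), measured 2.85 and 1.25 FPKM in Control, 4.76 and 21.1 FPKM in Model, 7.11 and 12.9 FPKM in ASA, 5.32 and 6.56 FPKM in CUR, and 9.11 and 7.64 FPKM in ASA+CUR. Every AOM/DSS library was above Control, and the Model libraries were the lowest and the highest of the 8. The difference was 1.94 ± 0.58 in Model (adjusted p = 0.0593, limma) and 1.23 to 1.85 in the other groups (adjusted p between 0.0551 and 0.198). Without Model replicate 0 it reached 2.91 in Model (adjusted p = 0.012, limma). Without Model replicate 0 or 1 it also passed in ASA (adjusted p = 0.0119 and 0.0121, limma) and in ASA+CUR (0.0139 and 0.0141). With a pseudocount of 0.1 it passed in Model, ASA and ASA+CUR (adjusted p = 0.0483, 0.0422 and 0.0477, limma). Without the libraries of high Krt5 it passed in Model and ASA (adjusted p = 0.0347 and 0.0391, limma), and without those of low Hoxd13 in ASA and ASA+CUR (0.0415 and 0.0111). With only the 2 groups compared it passed in ASA and ASA+CUR (adjusted p = 0.0328 and 0.011, limma).

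C1qa, a chain of the complement component C1q that macrophages make (chr4:136895916-136898844), measured 53.8 and 34.5 FPKM in Control, 84.2 and 218 FPKM in Model, 80.3 and 156 FPKM in ASA, 164 and 104 FPKM in CUR, and 91.8 and 65.8 FPKM in ASA+CUR. The groups did not overlap, with the lowest AOM/DSS library 1.22-fold above the higher Control library. The difference was 1.63 ± 0.50 in Model (adjusted p = 0.0636, limma) and 0.84 to 1.58 elsewhere (adjusted p between 0.0727 and 0.238). It passed in Model without Model replicate 0, at 2.31 (adjusted p = 0.0305, limma), and without the libraries of high Krt5 (adjusted p = 0.0496). It passed in CUR without Model replicate 0 or 1 (adjusted p = 0.0411 and 0.041).

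Lyz2 had the highest level per length of the set in every library. It measured 133 and 105 FPKM in Control, 386 and 1046 FPKM in Model, 202 and 809 FPKM in ASA, 429 and 295 FPKM in CUR, and 238 and 371 FPKM in ASA+CUR. Every AOM/DSS library was above Control, and ASA replicate 0 was the lowest of them. The difference was 2.41 ± 0.67 in Model (adjusted p = 0.0456, limma), 1.76 in ASA (adjusted p = 0.0962), 1.58 in CUR (adjusted p = 0.154) and 1.32 in ASA+CUR (adjusted p = 0.171). Without ASA replicate 0 it passed in ASA, at 2.76 (adjusted p = 0.0227, limma). Without the libraries of high Krt5 it passed in ASA and CUR (adjusted p = 0.0225 and 0.0425, limma), and without those of low Hoxd13 in CUR and ASA+CUR (0.0469 and 0.0143). With only the 2 groups compared it passed in CUR and ASA+CUR (adjusted p = 0.0372 and 0.014, limma).

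The Model call of Lyz2 was close to the threshold. It was lost without Control replicate 0 (adjusted p = 0.151, limma), Control replicate 1 (0.216) or Model replicate 1 (0.207), and without CUR replicate 0 or 1 (0.0541 and 0.0542) or ASA+CUR replicate 0 or 1 (0.0651 and 0.0653). It was also lost with no filter on low values (adjusted p = 0.0685, limma) and with transcript rows in place of gene sums (0.0597).

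Lyz1, the near-copy shown above, measured 7.24 and 6.48 FPKM in Control and 897 to 2760 FPKM after AOM/DSS, a difference of 8.13 ± 0.28 in Model (adjusted p = 1.8e-05, limma). For every 100 FPKM of Lyz1 there were 1626 to 1836 FPKM of Lyz2 in Control and 19.8 to 50.5 FPKM after AOM/DSS. The part of fragments shared with Lyz1 in the Lyz2 difference was not tested. The sum of Lyz1 and Lyz2 was mostly Lyz1 after AOM/DSS. In the groups where Lyz2 alone did not pass, this sum differed from Control by 3.77 in ASA (adjusted p = 0.000713, limma), 3.64 in CUR (adjusted p = 0.00105) and 3.30 in ASA+CUR (adjusted p = 0.000949).

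Across the set, 3 of 9 genes rose in Model against Control, where 6.84% of all tested genes rose. Arg1 and Spp1 were the 2 of 9 that rose in each of the other groups, where 9.78% of all genes rose for ASA, 6.67% for CUR and 13.1% for ASA+CUR. None of the 9 fell in any of these, where 9.34%, 12.7%, 8.34% and 16.4% of all genes fell in Model, ASA, CUR and ASA+CUR. In either direction 16.2%, 22.5%, 15% and 29.5% of all genes passed. The median difference over the set was 1.63 in Model beside 0.02 over all tested genes, and for ASA, CUR and ASA+CUR it was 1.36, 1.23 and 0.95 beside 0.02, 0.01 and 0.03. All 8 AOM/DSS libraries lay above both Control libraries for 6 of the 9 genes, as they did for 20.1% of all genes. They lay below for Cd163, as for 20.3% of all genes, and overlapped for Adgre1 and Mrc1. The set was chosen with earlier results of these data known. Arg1 and Spp1 met the filter on low values only through AOM/DSS libraries, and Cd163 only through Control. The shares and medians of all genes are therefore given for scale, and no excess of the set is read from them.

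These counts depended on the libraries in the fit. The number of all genes that passed moved as well, and not always in the same direction. Whether the set moved apart from all genes was not tested. The Model count fell without Control replicate 0 or 1 and rose without Model replicate 0. Fewer of all genes passed in each of these fits. The ASA count rose without ASA replicate 0, where fewer of all genes passed. The CUR count fell without Control replicate 0 or 1 or CUR replicate 0 or 1. Of all genes, more passed without CUR replicate 1 and fewer in the other fits named for CUR. Leaving out the libraries of high Krt5 raised the counts for Model, ASA and CUR, while fewer of all genes passed. Leaving out those of low Hoxd13 raised the counts for ASA, CUR and ASA+CUR, and more of all genes passed. Both of these alternatives were chosen after seeing the data, and each leaves groups with a lone library that is assumed to vary like the others.

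**Figure D3:**
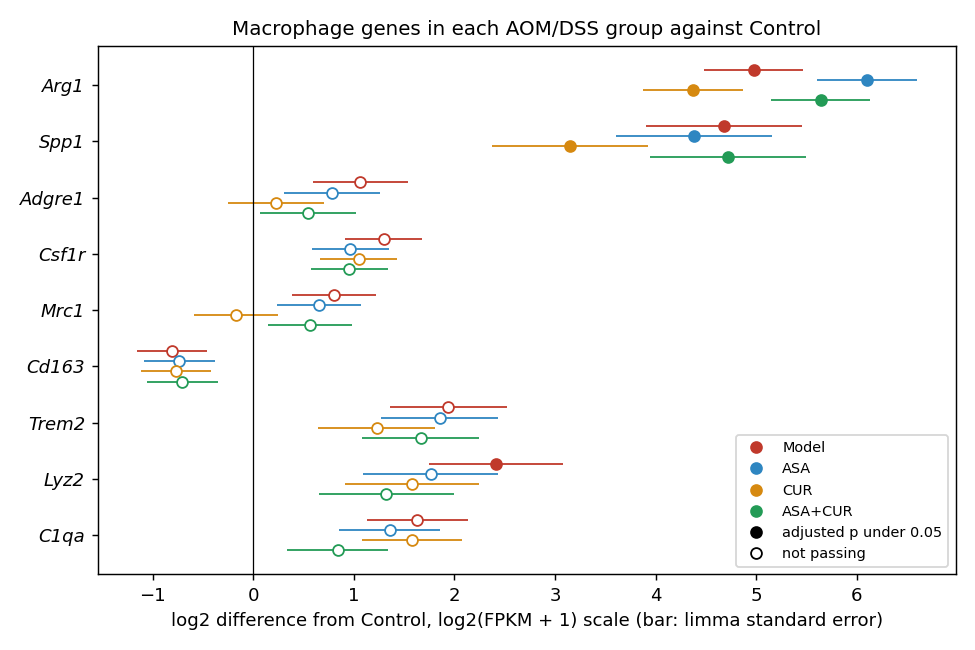
Log2 difference from Control on the log2(FPKM + 1) scale for the 9 genes in Model, ASA, CUR and ASA+CUR, with bars for limma's standard error and filled points where the adjusted p is under 0.05. Arg1 and Spp1 pass in the 4 groups, with differences between 3.15 and 6.10, and Lyz2 passes in Model.

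Among the AOM/DSS groups none of the 9 genes passed in any of 6 comparisons. The share of all genes that passed was 0.0142% for ASA against Model, 0.00711% for CUR against Model, 0.0142% for ASA+CUR against Model, 0% for ASA+CUR against ASA and against CUR, and 0.00711% for ASA against CUR. The last shares rest on CUR replicate 1: without it, 1956 of the 14061 genes passed in ASA+CUR against CUR and 542 in ASA against CUR, and still 0 of the set in either. At an unadjusted p under 0.05, limma gave 1 gene of the set in CUR against Model, 1 in ASA+CUR against CUR, 1 in ASA against CUR, and 0 in the others. The share of all genes at that threshold was not computed, so these counts do not set the genes apart.

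For Arg1, both ASA libraries were above both CUR libraries, with a difference of 1.73 ± 0.49 (adjusted p = 0.832, unadjusted p = 0.00832, limma). Both ASA+CUR libraries were above both CUR libraries as well, with a difference of 1.27 ± 0.49 (adjusted p = 0.339, limma). The share of all genes whose libraries part in this way between AOM/DSS groups was not computed. Such parting is therefore not read as a trait of Arg1 or, below, of Spp1. ASA differed from Model by 1.13 ± 0.49 and CUR from Model by -0.60 ± 0.49, with overlapping libraries and adjusted p of 1 and 0.934 (limma). ASA+CUR differed from Model by 0.67 and from ASA by -0.46 (adjusted p = 0.61 and 1, limma), and without ASA replicate 1 the latter turned to 0.25.

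For Spp1, CUR lay below Model in both libraries, with a difference of -1.52 ± 0.78 (adjusted p = 0.934, limma). It lay below ASA+CUR by 1.57 ± 0.78 and below ASA by 1.23 ± 0.78 (adjusted p = 0.387 and 0.832, limma). ASA against Model, ASA+CUR against Model and ASA+CUR against ASA gave -0.29, 0.05 and 0.34, each with overlapping libraries, and each changed sign when single libraries were left out. The diets held aspirin and curcumin at unlike doses alone and together, so these values stand side by side and do not compare equal doses.

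Levels relative to Csf1r within a library show how the effector genes stood to the lineage receptor. For every 100 FPKM of Csf1r there were 4.94 to 5.65 FPKM of Arg1 in Control. After AOM/DSS there were 75.5 to 527 FPKM, with a median of 312 and the lowest value in Model replicate 1. Spp1 stood at 2.73 to 5.16 FPKM in Control and 44.0 to 299 FPKM after AOM/DSS, lowest in CUR replicate 0 and highest in ASA+CUR replicate 1. Neither ratio overlapped between Control and AOM/DSS libraries.

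For the other genes apart from Cd163 the ratios to Csf1r moved less. Trem2 stood at 12.0 to 19.8 FPKM per 100 FPKM of Csf1r in Control and 20.1 to 46.8 FPKM after AOM/DSS, C1qa at 329 to 374 FPKM and 282 to 621 FPKM, and Lyz2 at 924 to 1007 FPKM and 910 to 2320 FPKM. Mrc1 stood at 40.5 to 48.7 FPKM in Control and 15.2 to 39.0 FPKM after AOM/DSS, so it was lower relative to Csf1r in all 8 libraries. Adgre1 stood at 42.9 to 52.7 FPKM and 22.6 to 51.3 FPKM. Cd163 stood at 10.6 to 10.9 FPKM in Control and 0.202 to 3.58 FPKM after AOM/DSS. These ratios show unequal change and not which of the paired genes moved.

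**Figure D4:**
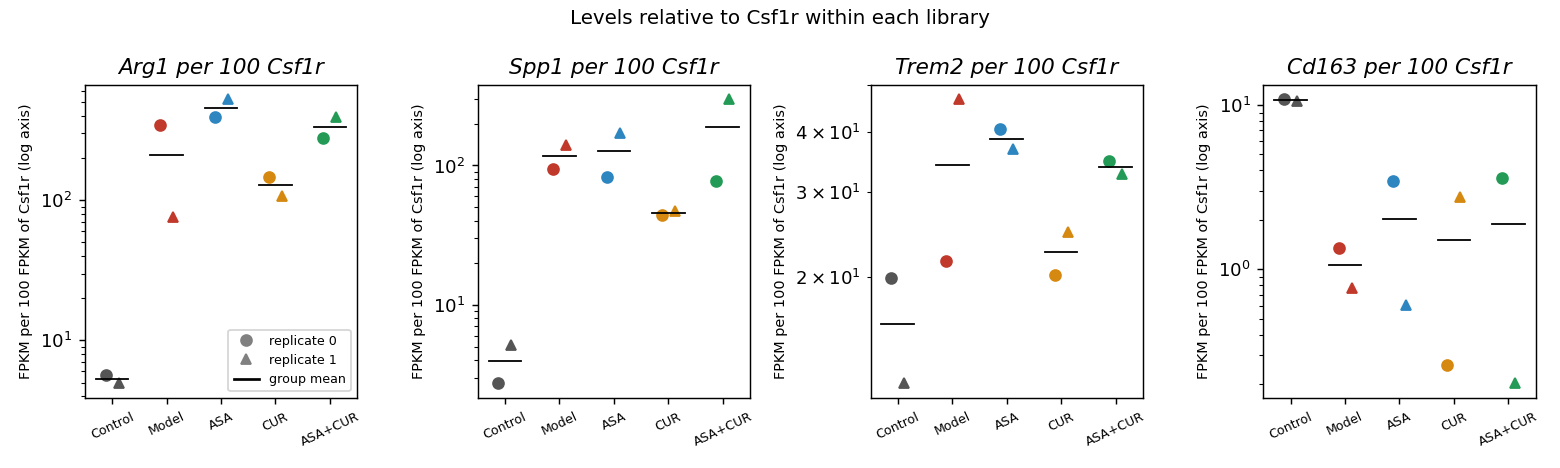
FPKM of Arg1, Spp1, Trem2 and Cd163 for every 100 FPKM of Csf1r in the same library, on log axes, with circles for replicate 0, triangles for replicate 1 and a line at the group mean. Arg1 and Spp1 lie higher in all AOM/DSS libraries than in Control, and Cd163 lies lower.

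Over the 8 AOM/DSS libraries the set did not vary as a block. Model replicate 1 was among the 2 highest of the 8 libraries for 7 of the 9 genes and ASA replicate 1 for 6, while ASA replicate 0 and CUR replicate 0 were among the 2 lowest for 4 and 5. Pearson's r of log2(FPKM + 1) was 0.923 between Mrc1 and Trem2, 0.915 between Adgre1 and Mrc1, and 0.841 between Csf1r and C1qa (n = 8 libraries). Spp1 followed Mrc1 at 0.807 and Adgre1 at 0.764. Arg1 had r of 0.477 with Spp1, 0.325 with Mrc1, 0.254 with Adgre1, 0.088 with Lyz2, 0.072 with Trem2, -0.114 with Csf1r, -0.247 with Cd163 and -0.273 with C1qa (n = 8). These libraries share a diet group in pairs and the tissue differences given above, so r is a description.

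The genes most like Arg1 by Pearson's r over the 8 AOM/DSS libraries were Lpgat1 (0.96), Cdcp1 (0.959), Ibtk (0.949), Olr1 (0.946) and Xab2 (0.941), out of 14061. Olr1, a receptor for oxidised lipoprotein, was highest in ASA replicate 1 at 4.20 FPKM, the library with the most Arg1. It was picked from all tested genes by r over these same libraries, so a shared highest library follows from the choice. How high r would reach by such a selection alone was not tested. For Spp1 they were Fermt2 (0.982), Kif3c (0.974), Lilrb4a (0.96), Amer2 (0.952) and Map9 (0.945). Lilrb4a, an inhibitory receptor of myeloid cells, measured 1.18 and 1.03 FPKM in Control and 6.30 to 16.1 FPKM after AOM/DSS.

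Some markers of other myeloid cells moved with the same comparisons, and others did not. Of 7 neutrophil genes tested, 4 rose in Model against Control (Mmp9, S100a8, S100a9 and Csf3r), with a list median of 2.15. S100a8, a calcium-binding protein abundant in neutrophils, measured 0.378 and 0 FPKM in Control and 25.4 to 228 FPKM after AOM/DSS, highest in ASA replicate 1 as Arg1 was. The 11 neutrophil genes in the table summed to 2.51 to 5.2 FPKM in Control, 140 to 204 FPKM in Model, 207 to 600 FPKM in ASA, 110 to 169 FPKM in CUR and 77.1 to 316 FPKM in ASA+CUR. Both Control libraries list 4 of these genes at 0, and all 10 libraries list 1 at 0. Over the 8 AOM/DSS libraries S100a8 followed Arg1 at r = 0.681, Spp1 at 0.469 and Csf1r at -0.045. The part of neutrophils in the Arg1 difference was not tested.

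Of 8 monocyte genes tested, only Ccl2, a monocyte attractant, passed in Model, where it rose. Ly6c2, Ccr2 and Plac8 overlapped between Model and Control (adjusted p = 0.277, 0.223 and 0.924, limma). Of 7 dendritic cell genes 3 rose (Itgax, Ccr7 and Itgae). Flt3, Zbtb46, Cd209a and Batf3 did not pass (adjusted p = 0.575, 0.345, 0.853 and 0.364, limma). Ptprc, the CD45 antigen of all leukocytes, measured 6.26 and 4.73 FPKM in Control and 7.56 to 15.9 FPKM after AOM/DSS, a difference of 0.88 ± 0.37 in Model (adjusted p = 0.145, limma). Itgam, the CD11b integrin of myeloid cells, rose by 1.26 ± 0.28 (adjusted p = 0.0235, limma). Fibroblast genes rose in 5 of 8 cases, Col1a1 among them (1.60 ± 0.27, adjusted p = 0.00872, limma), and 0 of 9 colon epithelium genes passed in either direction. The part of these cells in the Spp1 difference was not tested.

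The arginine pathway around Arg1 changed in a few genes. Of 12 genes tested in Model against Control, 3 rose and 1 fell, with a median of 0.35. Nos2, the inducible nitric oxide synthase that uses the same arginine, rose from 1.22 ± 1.16 to 10.5 ± 2.39 FPKM (SD, n = 2), a difference of 2.45 ± 0.44 (adjusted p = 0.01, limma). The arginine transporter Slc7a2 rose by 0.99 and the agmatinase Agmat by 1.23 (adjusted p = 0.0214 and 0.0287, limma), and Otc, which condenses ornithine with carbamoyl phosphate, fell by 2.14 (adjusted p = 0.0025). Arg2, the mitochondrial arginase, measured 1.05 and 1.35 FPKM in Control and 2.61 and 3.91 FPKM in Model, and did not pass (adjusted p = 0.102, limma).

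Arg1 and Nos2 did not keep a fixed ratio. For every 100 FPKM of Nos2 there were 39.7 and 128 FPKM of Arg1 in Control, 630 and 388 FPKM in Model, 291 and 1107 FPKM in ASA, 427 and 583 FPKM in CUR, and 1842 and 4351 FPKM in ASA+CUR. The ASA+CUR libraries had the highest ratios, with Nos2 at 3.94 and 2.11 FPKM there against 4.89 to 23.6 FPKM in the other 6 AOM/DSS libraries.

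Of 9 receptor genes for osteopontin, 2 rose and 1 fell in Model, with a median of 0.37. Cd44 rose from 14.8 ± 1.07 to 40.6 ± 1.29 FPKM (SD, n = 2), a difference of 1.40 ± 0.18 (adjusted p = 0.00292, limma). Itgav, the integrin alpha-v chain, rose by 1.30 (adjusted p = 0.016, limma) and Itga8 fell by 0.78 (adjusted p = 0.0422), a gene that met the filter on low values only through Control. Cd44 was above Control in all 8 AOM/DSS libraries, at 39.7 to 67.2 FPKM against 14.0 and 15.5 FPKM.

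Around Csf1r, 4 of 9 genes of growth factor signalling rose in Model and none fell, with a median of 0.97. The ligand Csf1 measured 5.50 and 5.01 FPKM in Control and 9.62 to 17.3 FPKM after AOM/DSS, with a difference of 1.25 ± 0.26 in Model (adjusted p = 0.0169, limma). The other ligand, Il34, measured 6.80 and 8.43 FPKM in Control and 9.73 to 25.1 FPKM after AOM/DSS and did not pass in Model (adjusted p = 0.12, limma). Csf2rb, a shared cytokine receptor chain, rose by 1.92, Csf3r by 2.15 and Spi1, the PU.1 factor, by 1.60 (adjusted p = 0.00575, 0.00901 and 0.0195, limma).

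Around Trem2, 4 of 13 genes of lipid handling and TREM2 signalling rose and none fell, with a median of 0.52. Tyrobp, the adaptor through which Trem2 signals, measured 25.7 and 16.5 FPKM in Control and 59.7 to 137 FPKM after AOM/DSS, with a difference of 2.17 ± 0.40 in Model (adjusted p = 0.0116, limma). Fabp5, a fatty acid carrier, rose by 1.98 and Gpnmb, a membrane glycoprotein of lipid-laden macrophages, by 2.42 (adjusted p = 0.000806 and 0.0334, limma). Apoe, the lipid carrier, rose by 2.05 at the edge of the threshold (adjusted p = 0.0496, limma).

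Of 8 complement genes, 4 rose in Model and none fell, with a median of 1.40. C1qb and C1qc encode the partner chains of C1qa. C1qc rose by 1.68 ± 0.46 (adjusted p = 0.0435, limma), while C1qb differed by 1.63 ± 0.48 (adjusted p = 0.0566), next to 1.63 ± 0.50 for C1qa. The 3 chains thus gave nearly equal differences on both sides of the threshold. C4b, C3 and C2, later components of the cascade, rose by 1.85, 1.26 and 1.55 (adjusted p = 0.0138, 0.04 and 0.0416, limma).

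Genes used to describe macrophage states gave unlike counts in Model. Of 10 genes of classical activation, 5 rose and none fell, with a median of 1.46: Il1b by 3.50, Il23a by 2.95, Tnf by 2.01, Cd80 by 1.02 and Cd86 by 1.17 (adjusted p between 0.00209 and 0.0416, limma). Of 7 genes of alternative activation, the chemokine Ccl22 rose by 1.84 (adjusted p = 0.036, limma) and Retnla fell by 4.35 (adjusted p = 0.00663). Retnla, a secreted protein of alternatively activated macrophages that eosinophils also make, measured 62.0 and 8.97 FPKM in Control, far apart, and 0 to 0.310 FPKM after AOM/DSS. It met the filter on low values only through Control, so it had to differ to be tested. Of 11 scavenger and tissue-resident genes, Msr1 alone passed, rising by 2.00 (adjusted p = 0.0134, limma).

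General phagocyte genes rose in 8 of 13 cases and none fell, with a median of 1.40, among them the lysosomal protease Lgmn, the pore protein Mpeg1, and the Fc receptors Fcgr1 and Fcgr3 (adjusted p between 0.0121 and 0.0226, limma). The counts named for Model in these lists are read beside 6.84% of all genes higher and 9.34% lower. Some genes met the filter on low values only through AOM/DSS libraries and so had to differ to be tested: Slc7a2, Agmat, Csf3r, Gpnmb, Tnf, Il23a, Cd80, Fcgr1, Mmp9, S100a8 and S100a9 among those named. Nos2, Cd86, C2, Ccr7 and Itgae reached 1 FPKM in a single Control library, so they too met the filter only with AOM/DSS libraries. The difference between lists was not tested.

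**Figure D5:**
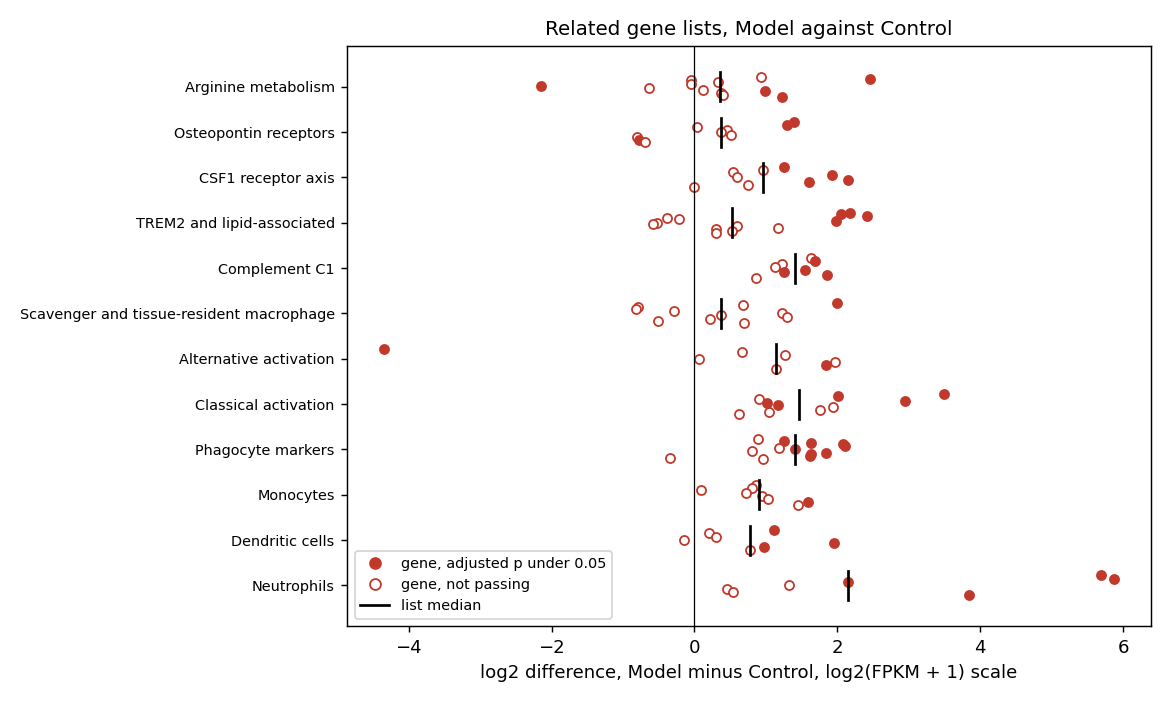
Log2 difference of Model from Control on the log2(FPKM + 1) scale for each tested gene of 12 gene lists, 1 list per line, filled where the adjusted p is under 0.05, with a black bar at the list median. The median lies between 0.35 (arginine metabolism) and 2.15 (neutrophils), and the lowest point is Retnla.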

How the data were processed

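Colon RNA of 10 mouse libraries in 5 groups of 2 was sequenced from Illumina TruSeq libraries, per the labels' protocols. The authors deposited FPKM per RefSeq transcript. Tools in the submitters' processing notes are TopHat2 2.0.9, Bowtie2 2.1.0.0, bcl2fastq 2.17.1.14 and Cuffdiff (no version), with the builds mm10 and GRCm38 and no role or order. The sources used here do not state how strand and multi-mapping fragments were handled.

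Of 30073 transcripts, 29443 were named from RefSeq (GRCm38.p6) and 179 from GENCODE, and FPKM were summed per gene. Depth is unknown. Steps between low values gave relative depths of 1.0 to 1.35, but in libraries other than the reference Control replicate 0 only 17.4% to 21.9% of the ratios behind each lay in their mode, so no reads were recovered.

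The 14061 genes that reached 1 FPKM in 2 or more libraries were tested with limma 3.58.1 (R 4.3.3) on log2(FPKM + 1), two-sided, with an intensity trend and all 10 libraries in 1 fit (5 residual and 2.96 prior degrees of freedom). Benjamini-Hochberg adjustment ran over all genes of a comparison at 0.05. Errors of FPKM are SD over 2 libraries. The steps were tested on simulated data. The genes of the set and the lists were chosen with earlier results of these data known. Named genes are the set itself, up to 4 passing genes of each list in Model against Control by smallest p, the fixed genes Ptprc, Itgam, Lyz1, Arg2, Tyrobp, C1qb, C1qc, Csf1, Il34 and Nos2, and the 5 genes most like Arg1 and Spp1. Krt5, Krt14, Hoxd13, Cd86 and the named monocyte and dendritic cell genes that did not pass were named after their values were seen. Alternatives were the pseudocount, the filter, the groups in the fit, scaling, the variance trend, transcript rows, summed lysozymes, a replicate block and leaving out libraries.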

Additional observations from a re-analysis of the deposited data

How the results depend on the processing

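Of the alternative values of differences from Control, 691 kept their direction and side of the threshold, 43 newly passed, 15 no longer passed and 3 changed sign. Many alternatives alter only the spread or the adjustment, so they could not change the direction. Most differences did not pass in the main fit, so keeping the side mostly means still not passing. The 691 is therefore not a measure of robustness. The 3 sign changes were of Mrc1 in CUR, which ran from -0.48 to 0.13 when libraries were left out and was 0.020 without the libraries of low Hoxd13. With each library left out in turn, the number of genes of the set that passed changed in each comparison with Control, as did the number of all genes that passed. With only the 2 groups compared in the fit, 6758 of 14061 genes passed in ASA+CUR, beside 4148 with all libraries in the fit. In CUR 1395 genes passed, beside 2110 with all libraries. In these 2-group fits the number of genes of the set that passed was 6 in ASA+CUR and 4 in CUR. Without the libraries of high Krt5 it was 7 in Model, 6 in ASA and 4 in CUR, and without those of low Hoxd13 it was 6 in ASA+CUR and 4 in CUR. Arg1 and Spp1 among AOM/DSS groups passed under no alternative that was run. Their sign changed in 8 cases: Arg1 in ASA+CUR against ASA ran from -1.17 to 0.25, and Spp1 ran from -1.28 to 0.70 in ASA against Model, from -0.65 to 1.33 in ASA+CUR against ASA and from -0.83 to 0.92 in ASA+CUR against Model, where transcript rows gave -0.015. The cause was not tested. Same-numbered libraries deviated together at r between -0.214 and 0.326. With 2 libraries a group these values cannot decide whether the numbers pair them. With a replicate block, 3 genes passed in Model and 2 in each of ASA, CUR and ASA+CUR, as without it. Arms left with 1 library are assumed to vary like the other groups. FPKM set no limit of detection, which matters most for Cd163 and for Arg1 and Spp1 in Control.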

Other observations

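Osteopontin is also a matrix protein of bone, and 2 further lists, of bone cells and of mast cells, were read in Model against Control. Of 5 osteoclast and bone genes tested, Ctsk, a collagen-cleaving protease of osteoclasts and activated macrophages, rose from 3.66 ± 1.25 to 22.2 ± 14.7 FPKM (SD, n = 2), a difference of 2.18 ± 0.48 (adjusted p = 0.0218, limma), and Ocstamp, a cell fusion protein, rose by 1.01 (adjusted p = 0.0478). Acp5, the tartrate-resistant acid phosphatase, fell by 0.69 and Bglap, osteocalcin, fell by 2.42 (adjusted p = 0.0214 and 0.000821, limma). Bglap met the filter on low values only through Control, and Ocstamp and Tpsb2 only through AOM/DSS libraries, so these had to differ to be tested. Cma1 reached 1 FPKM in a single Control library, so it too met the filter only with AOM/DSS libraries. Of 9 mast cell and eosinophil genes, the mast cell proteases Tpsb2 and Cma1 rose by 4.01 and 2.74 (adjusted p = 0.0218 and 0.0321, limma), and Kit, the stem cell factor receptor of mast cells and of pacemaker cells in the muscle layer, fell as well (adjusted p = 0.0471).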
